A study of Mus musculus with 23 samples.

Results

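The comparison set hydrogel with growth factors against injury alone in flow-through RNA, the RNA left after ribosomes of astrocytes had been pulled out of the lesion homogenate. It used 9 of the 23 samples of the series, chosen by their labels: 5 libraries from mice given the hydrogel with growth factors after spinal cord injury (title numbers 1645, 1685, 1687, 1729 and 1732) and 4 from mice with the injury only (9596, 9843, 9874 and 9935). All were young adult mGFAP-Cre-RiboTag mice, in which the mouse Gfap promoter drives Cre and Cre switches on a hemagglutinin tag on a ribosomal protein. The genotype label of every library is wild type. All had a severe crush at thoracic level 10, and the central 3 mm of the lesion was taken at 14 days. The hydrogel depot was injected at 2 days after injury. The series title names the growth factors as FGF and EGF, while the deposited column names for the same libraries name others, so the group is called here the hydrogel with growth factors. A group of 4 flow-through libraries labelled hydrogel CT, an abbreviation the labels do not explain, is set beside the 2 groups. Whether each title number stands for 1 mouse is not stated in the labels, so the spread behind each p-value is that between libraries and may be technical. The title numbers of the 2 groups do not mix, so treatment and cohort cannot be told apart.

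A crush lesion fills within days with microglia and blood-derived macrophages, which clear myelin and dying cells through phagocytosis and lysosomal digestion. C1q, the first component of the classical complement pathway, is built from 3 chains that these cells make from 3 neighbouring genes. FGF and EGF act through receptor tyrosine kinases, and in the spinal cord both are known to stimulate the division of glial progenitors and astrocytes. Because the tag sits in astrocytes, flow-through RNA carries the other cells of the lesion and whatever astrocyte RNA escaped the precipitation.

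The C1q chains and Cx3cr1 are described closely below, though only C1qa and Cx3cr1 of these passed the test. The first 90 bases of the spliced coding sequence of each are shown here so that the base composition discussed later can be seen. Capitals mark G and C. Sequence and coordinates come from the GENCODE M21 annotation of GRCm38, the assembly that mm10 names. C1qa lies at chr4:136895917-136898803, C1qc at chr4:136889804-136893065, C1qb at chr4:136880129-136886187 and Cx3cr1 at chr9:119901616-120069879, all on the minus strand.
C1qa: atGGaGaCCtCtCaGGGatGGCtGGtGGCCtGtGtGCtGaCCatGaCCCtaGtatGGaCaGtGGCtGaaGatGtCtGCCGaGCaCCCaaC
C1qb: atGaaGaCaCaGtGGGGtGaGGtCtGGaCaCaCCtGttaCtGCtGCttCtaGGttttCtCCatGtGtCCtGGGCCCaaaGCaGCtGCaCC
C1qc: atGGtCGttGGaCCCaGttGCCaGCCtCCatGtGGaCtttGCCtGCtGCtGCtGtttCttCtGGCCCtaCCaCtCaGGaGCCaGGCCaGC
Cx3cr1: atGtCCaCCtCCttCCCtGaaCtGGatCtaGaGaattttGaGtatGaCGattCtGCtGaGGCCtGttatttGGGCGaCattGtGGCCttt
Over the whole transcript, G and C made up 59.5% of C1qa, 57.4% of C1qb, 57.5% of C1qc and 49.6% of Cx3cr1. The median over all genes tested was 48.0%.

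The libraries differed in depth before any gene was compared. Protein-coding counts numbered 2244, 14638, 6436, 9910 and 115736 in the growth-factor libraries 1645, 1685, 1687, 1729 and 1732, and 254777, 93565, 95974 and 26845 in the injury-only libraries 9596, 9843, 9874 and 9935. By these counts only library 1732 reached the depth of the injury-only group, and the groups overlap through it alone. All counts of rows with a symbol numbered 92703, 40367, 64336, 43621 and 144902 in the growth-factor libraries, in the same order. The injury-only libraries held 5432216, 3528166, 3876077 and 2241508, so the groups did not overlap in total depth. Protein-coding genes took 30.3 ± 30.6% of all counts with growth factors and 2.75 ± 1.44% with injury only (SD, n = 5 and 4, 2-sided exact permutation p = 0.0794, adjusted over 3 library measures 0.0794). Yam1, a ribosomal RNA locus, took 59.3 ± 30.2% and 91.3 ± 1.38% (exact permutation p = 0.0476, adjusted 0.0714). The number of protein-coding genes with a count was 2414 ± 1318 and 4280 ± 580 (exact permutation p = 0.0397, adjusted 0.0714). The smallest p that 5 against 4 libraries allow is 0.0159, and none of the 3 measures passed the threshold after adjustment. In the shallowest library, 1645, 1 read stood for 226 CPM (counts scaled to the same total in every library, here over protein-coding counts after TMM), so levels below that could not be seen there.

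**Figure D1:**
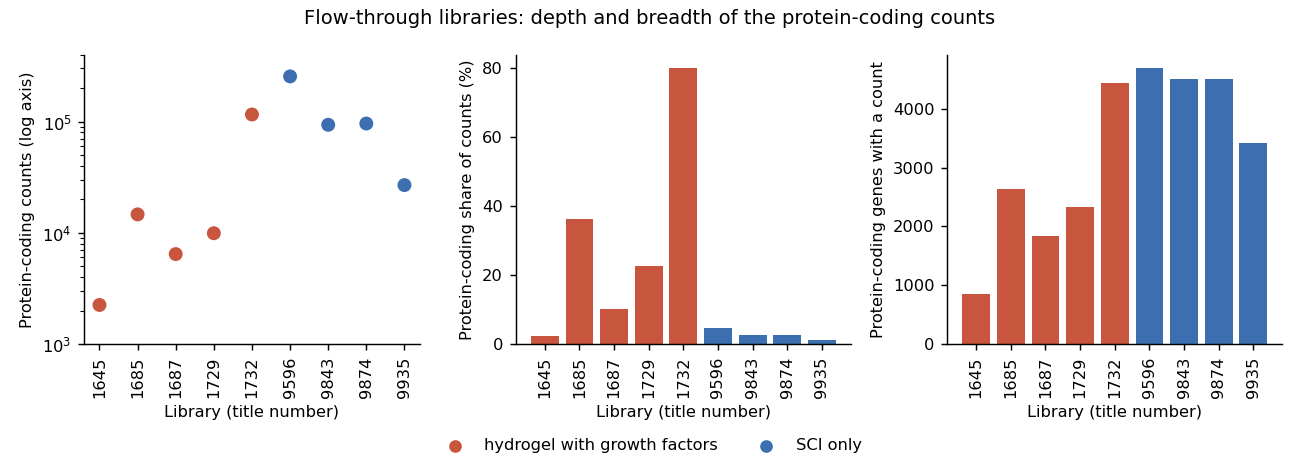
Protein-coding counts (log axis), their share of all counts in percent, and the number of protein-coding genes with a count, for each of the 9 flow-through libraries. Points and bars are single libraries. Library 1732 alone among the growth-factor libraries reaches the protein-coding depth of the injury-only group (115736 counts), and its protein-coding share of 79.9% is the highest.

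Growth-factor libraries also resembled each other less than injury-only libraries did. Across the 548 genes tested, Spearman's rho between pairs of growth-factor libraries ran from 0.0030 to 0.46, and between pairs of injury-only libraries from 0.72 to 0.83. Library 1729 stood apart by its astrocyte transcripts and library 1732 by its low sum of oligodendrocyte transcripts, with values given beside the results they touch. Genes are not independent replicates, and shallow libraries lower such correlations.

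Few genes passed the test in this comparison, and most that did were lower with growth factors. In edgeR's quasi-likelihood fit with Benjamini-Hochberg adjustment, 3 of 548 protein-coding genes rose (0.547%) and 20 fell (3.65%), and 127 genes had an unadjusted p under 0.05. Without scaling beyond the library total, 5 rose and 8 fell. The balance turned without library 1685, when 31 genes rose and 19 fell. Leaving out 1 injury-only library gave 0 or 1 gene that rose and 8 to 14 that fell. The median log2 difference of all genes tested was -0.02. All 5 growth-factor libraries lay below all 4 injury-only libraries for 60 genes (10.9%) and above them for 1 gene (0.182%), Pank3, a pantothenate kinase of coenzyme A synthesis (log2 difference 1.53 ± 0.62, adjusted p = 0.138). The 20 genes that fell were all among the former, and none of the 3 that rose had groups that did not overlap. A gene could enter the test on its injury-only counts alone, so these counts do not describe all 4763 protein-coding genes. Of the 22 calls followed while each of the 9 libraries was left out in turn, 7 were kept every time: C1qa, Gnai2, Gpx3, Itm2c, Myrf, Tyrobp and Ucp2.

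The fitted differences followed the base composition of the transcripts. Spearman's rho between the log2 difference and transcript GC content was -0.54 across 548 genes, a description over genes that share the same libraries. In 4 bins of 137 genes, from the least GC to the most, the median log2 difference was 0.65, 0.22, -0.11 and -1.13. The richest bin, from 52.5% to 65.3% GC, held 18 of the 20 genes that fell. The median GC of the genes that fell was 56.9%. When each library's own GC curve was entered as an offset, 4 genes rose and 0 fell, with 87 genes at an unadjusted p under 0.05. This alternative was added after the trend was seen, and it moved the median of all genes to 0.30. All 3 genes that rose kept their call under it, joined by Slc25a23, a mitochondrial carrier (3.83, adjusted p = 0.00606), and all 20 that fell lost it. The 4 lowest adjusted p-values among these, for C1qa, Gpx3, Tyrobp and Myrf, were then 0.0560, 0.0587, 0.0587 and 0.152.

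**Figure D2:**
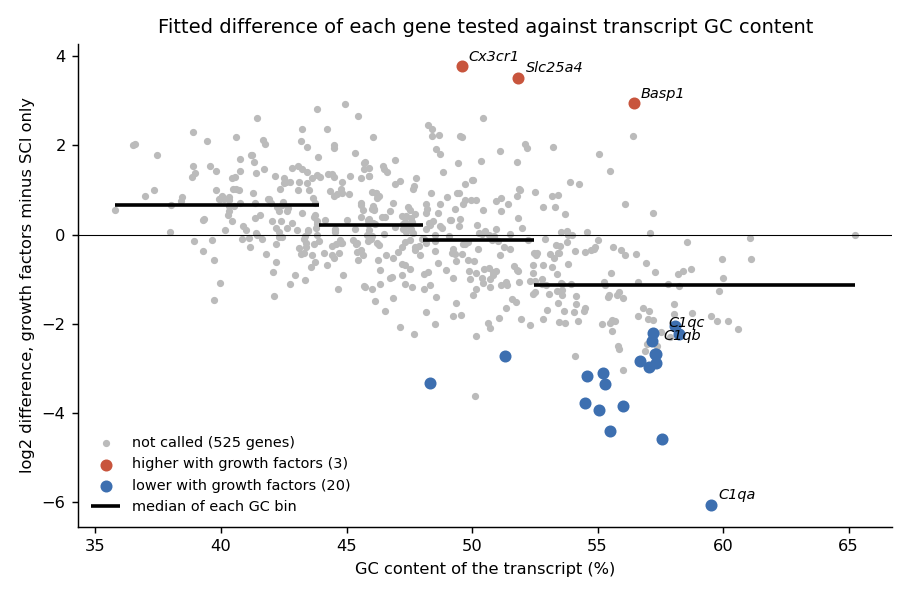
Log2 difference (growth factors minus injury only, vertical axis) against the GC content of the transcript in percent (horizontal axis) for 548 protein-coding genes. Each point is a gene, coloured where its adjusted p was under 0.05, and black lines are medians of 4 GC bins of 137 genes, which run from 0.65 at low GC to -1.13 at high GC.

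Among microglia and macrophage markers, C1qa, Tyrobp and Lyz2 fell and Cx3cr1 rose. Of the 23 genes in the list 15 had counts and 11 were tested, with 3 lower, 1 higher and a median log2 difference of -2.19 against -0.02 over all genes tested. Over all genes tested, 3.65% were called lower. In 6 of the 11 all growth-factor libraries lay below all injury-only libraries, as in 10.9% of all genes tested. The summed level of the 15 genes was 17816, 27873, 20699, 850 and 2685 CPM in the growth-factor libraries 1645, 1685, 1687, 1729 and 1732, and from 55212 to 131163 CPM with injury only. The groups did not overlap on this sum, and libraries 1729 and 1732 were the lowest. Fewer cells of a type and less RNA per cell cannot be told apart in such bulk samples. With the GC offset the list's median was -0.99, with Cx3cr1 higher and no member lower.

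C1qa, which encodes the A chain of C1q, had the largest fall of the genes that passed. It measured 226, 127, 252, 106 and 11.9 CPM in the growth-factor libraries and 5348, 7029, 9525 and 6764 CPM in the injury-only libraries. These levels rest on 1, 2, 2, 1 and 1 reads against 1216, 510, 720 and 148. Every growth-factor library was low, including 1732, where 603 reads would stand at the injury-only level. C1qa was 145 ± 96.9 CPM with growth factors and 7166 ± 1737 CPM with injury only (SD, n = 5 and 4). The fitted difference on the log2 scale was -6.06 with a standard error of 0.93 (adjusted p = 0.000332), and a ± after a log2 difference is a standard error from here on. In all, 7 reads were seen where 872 would stand at the injury-only level, a ratio of 125 with an exact 95% interval of 60.5 to 310 that covers counting error only. Library 1732 gave most of the expected reads, and without it 6 reads stood against 269, a ratio of 44.8 with an interval of 20.6 to 122. The GC offset left a log2 difference of -3.78.

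The other chains of C1q did not pass the test. C1qb measured 677, 1400, 631, 212 and 131 CPM with growth factors and 2907, 2894, 5675 and 2011 CPM with injury only. C1qb had a log2 difference of -2.50 ± 0.78 (adjusted p = 0.0654). C1qc measured 1128, 3055, 1641, 0 and 166 CPM with growth factors and 3673, 5251, 8308 and 4524 CPM with injury only, with a log2 difference of -2.19 ± 0.85 (adjusted p = 0.121). The groups did not overlap for either gene. In each growth-factor library C1qa had fewer reads than C1qb (1 against 3, 2 against 22, 2 against 5, 1 against 2 and 1 against 11), whereas in each injury-only library it had more (1216 against 661, 510 against 210, 720 against 429 and 148 against 44). In hydrogel CT libraries 1724, 1759 and 1762 C1qa also had fewer (4 against 40, 4 against 52 and 0 against 9), and in 1683 more (3 against 0). The 3 transcripts shown above are alike in GC content, and the difference between their changes was not tested. With the GC offset C1qb stood at -0.47 and C1qc at -0.15.

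Cx3cr1, the fractalkine receptor that marks resident microglia and some monocytes, went the other way. It measured 1128, 2545, 3029, 212 and 356 CPM with growth factors and 35.2, 82.7, 265 and 0 CPM with injury only. Library 1729, with 2 reads, fell inside the injury-only range and the other 4 lay above it. Cx3cr1 was 1454 ± 1277 CPM against 95.6 ± 118 CPM, with a log2 difference of 3.78 ± 0.97 (adjusted p = 0.0246). Reads numbered 5, 40, 24, 2 and 30 against 8, 6, 20 and 0, so the shallower group held more of them. The call was lost without library 9596, 9843 or 9935, with adjusted p of 0.112, 0.104 and 0.0806.

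Tyrobp, the signalling adaptor of TREM2 and related receptors, was seen in 7 reads in the growth-factor group. It measured 0, 63.6, 252, 0 and 47.5 CPM against 726, 1502, 2474 and 1051 CPM, with a log2 difference of -4.42 ± 0.85 (adjusted p = 0.00353). The 252 CPM of library 1687 rest on 2 reads. Lyz2, the lysozyme of myeloid cells, measured 7216, 7382, 7068, 212 and 760 CPM against 27784, 85586, 39317 and 27420 CPM, with a log2 difference of -3.33 ± 0.94 (adjusted p = 0.0433). Lyz2 lost its call in all 9 fits that left out 1 library, with adjusted p from 0.0509 to 0.122, and reads shared with its near-identical neighbour Lyz1 could be split between them. Laptm5, a lysosomal membrane protein of blood-derived cells, stood at -3.04 ± 0.94 (adjusted p = 0.0618). Gpnmb, a glycoprotein of lipid-laden phagocytes, stood at -1.81 ± 0.90 (adjusted p = 0.226), and its groups overlapped.

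**Figure D3:**
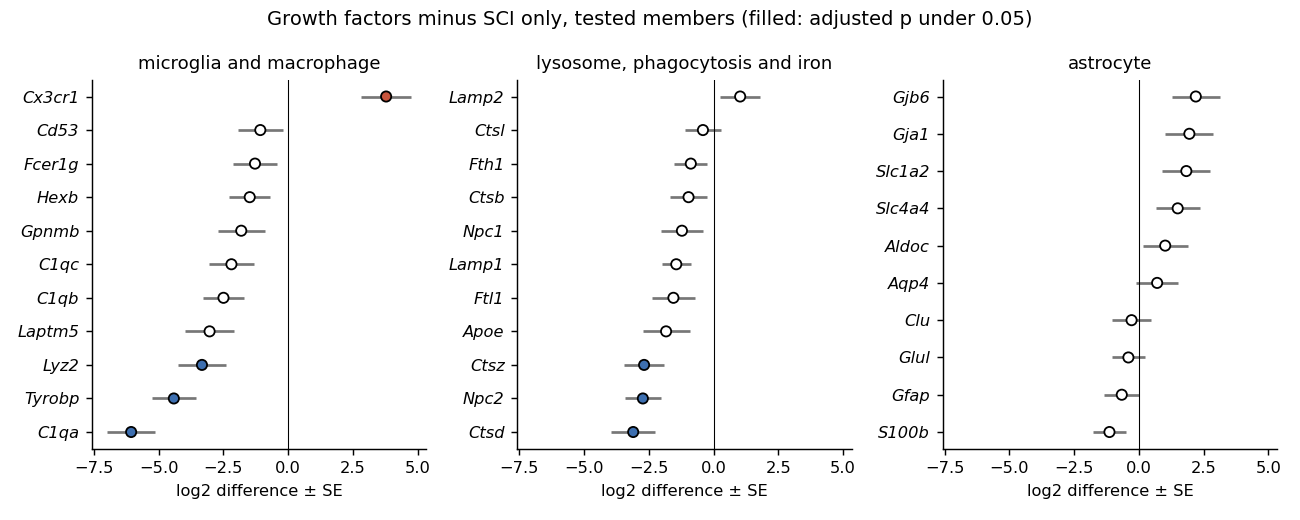
Log2 difference ± SE (growth factors minus injury only) for the tested members reported here of the microglia and macrophage, lysosome and astrocyte lists. Filled points passed the threshold: Cx3cr1 stands at 3.78 and C1qa at -6.06 at the ends of the microglial list, and no astrocyte marker passed.

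Of 4 microglia and macrophage markers too sparse to test, Tmem119 and Trem2 had no read in any growth-factor library. Cd68 had 10 reads there where 32.3 would stand at the injury-only level. Ctss went the other way, with 9 reads where 6.84 would stand. Tmem119, a surface protein of resident microglia, had 39, 43, 39 and 8 reads in the injury-only libraries, where 50.1 reads would stand over the 5 growth-factor libraries at that level. Taking 3 reads over the group as a bound, which covers counting error only, put Tmem119 at least 16.7-fold lower. Trem2, the lipid receptor that signals through Tyrobp, had 53, 20, 36 and 10 reads with injury only, and 43.9 reads would stand with growth factors. The same bound put Trem2 at least 14.6-fold lower. Both bounds rest on library 1732: without it 15.4 and 13.5 reads would stand, and the bounds were 5.14-fold and 4.50-fold. The bounds leave out the spread between libraries, and both genes were picked for having no read. Of 4763 protein-coding genes, 148 had no read in any growth-factor library, and 141 of them would have had 3 or more at the injury-only level, or 54 without library 1732. Their median GC was 54.4%, against 49.3% over all protein-coding genes. The largest shortfall was in Tmem86a, a lysoplasmalogenase, with 62.6 reads where none were seen, or 19.3 without library 1732. These genes were picked for naming after their values were seen. The reverse case, reads with growth factors and none with injury only, held 2 genes, 1110059E24Rik and Dynlt1f. Each injury-only library held at least 26845 protein-coding counts, and the growth-factor libraries other than 1732 at most 14638. The 148 and the 2 therefore cannot be set against each other.

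Of the lysosomal genes Ctsd, Npc2 and Ctsz fell, and most of the others had negative differences that did not pass. The list of lysosomal, phagocytic and iron-handling genes had 11 tested members of 21, of which 3 fell and none rose, with a median of -1.44, against 3.65% called lower over all genes tested. With the GC offset the list's median was -0.25 and no member was called. Ctsd, the aspartic protease cathepsin D, measured 2030, 891, 757, 319 and 83.2 CPM with growth factors and 4777, 8696, 6509 and 5210 CPM with injury only. The log2 difference of Ctsd was -3.10 ± 0.85 (adjusted p = 0.0365). Npc2, which carries cholesterol out of the lysosome, fell by 2.73 on the log2 scale (standard error 0.69, adjusted p = 0.0233). Ctsz, the carboxypeptidase cathepsin Z, fell by 2.68 (standard error 0.78, adjusted p = 0.0475). The list does not hold Hexa, a subunit of the lysosomal enzyme hexosaminidase A, which fell by 3.93 on the log2 scale (standard error 0.94, adjusted p = 0.0179). Ctsb, the most abundant cathepsin, stood at 8109 ± 6792 CPM against 15814 ± 4692 CPM (adjusted p = 0.409), and Fth1, the ferritin heavy chain, at 11681 ± 3836 CPM against 21447 ± 6270 CPM (adjusted p = 0.408). Apoe, the lipoprotein that takes up myelin lipid, had a log2 difference of -1.83 ± 0.91 (adjusted p = 0.222) and turned to 0.54 with the GC offset. Ctsd and Ctsz kept their call in 1 and 2 of the 9 fits that left out 1 library. The lysosomal sum moved with the microglial one: it was from 13169 to 51800 CPM with growth factors and from 46697 to 80294 CPM with injury only, and its part in the list's median was not tested.

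**Figure D4:**
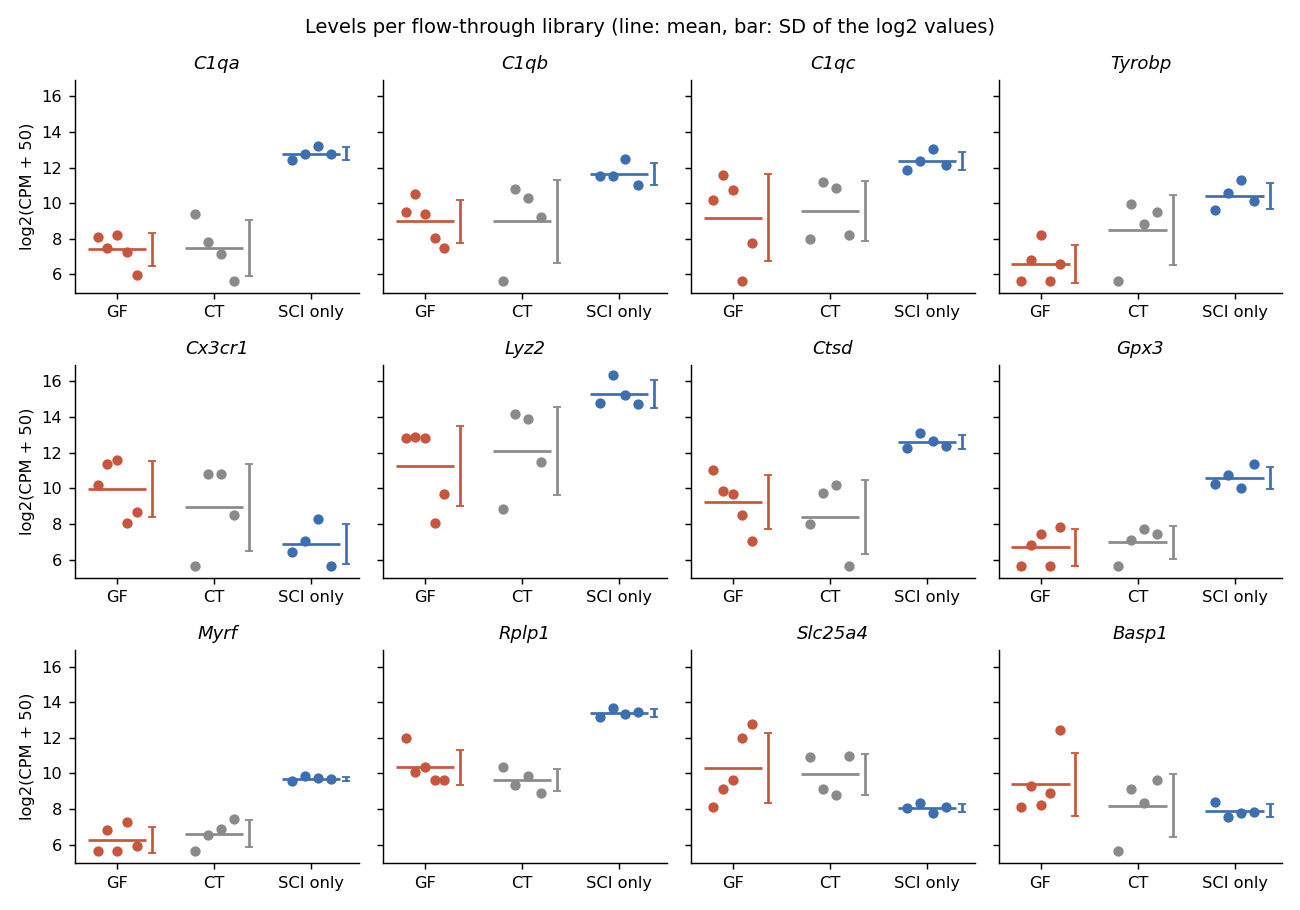
Levels of 12 genes in each flow-through library as log2(CPM + 50), for hydrogel with growth factors (GF), hydrogel CT (CT) and SCI only, so a library with no read sits at the bottom of its panel. Horizontal lines are means and bars are SDs: for C1qa all 5 GF libraries, at 11.9 to 252 CPM, lie below the 4 SCI only libraries, at 5348 to 9525 CPM, while for Basp1 library 1732 alone stands high in GF, at 5501 CPM.

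Slc25a4 and Basp1 completed the 3 genes that rose, and both were led by library 1732. Slc25a4, the ADP/ATP carrier of the inner mitochondrial membrane in excitable tissue, measured 226, 509, 757, 4036 and 6867 CPM with growth factors and 220, 276, 172 and 229 CPM with injury only. Libraries 1729 and 1732 were high, and library 1645, with 1 read, lay inside the injury-only range. The log2 difference of Slc25a4 was 3.51 ± 0.89 (adjusted p = 0.0233). Basp1, a membrane protein of growing axon tips, measured 226, 573, 252, 425 and 5501 CPM against 290, 138, 172 and 183 CPM, a log2 difference of 2.94 ± 0.84 (adjusted p = 0.0465). Of its 479 reads in the growth-factor group 463 came from library 1732, and without that library Basp1 was not among the genes tested. Slc25a4 and Basp1 each lost their call without any 1 of the 4 injury-only libraries, with adjusted p of 0.0799 to 0.109 and 0.105 to 0.173.

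The remaining genes that fell were not markers of 1 cell type. Gpx3 and Gpx1, glutathione peroxidases that remove peroxides with selenium in their active site, fell by 3.86 (standard error 0.70, adjusted p = 0.00239) and by 2.40 (standard error 0.65, adjusted p = 0.0365) on the log2 scale. Gpx3 measured 0, 63.6, 126.2, 0 and 178 CPM with growth factors against 1161, 1640, 979 and 2559 CPM. Sepw1, selenoprotein W, fell by 2.20 (standard error 0.63, adjusted p = 0.0465). Myrf, the transcription factor that drives myelin genes in oligodendrocytes, measured 0, 63.6, 0, 106 and 11.9 CPM against 721, 882, 794 and 777 CPM, so 3 reads stood against 96.5 at the injury-only level. The log2 difference of Myrf was -4.59 ± 0.92 (adjusted p = 0.00450), the next largest after that of C1qa among the genes that passed. Ucp2, a mitochondrial carrier abundant in macrophages, measured 677, 382, 0, 106 and 178 CPM against 1803, 4410, 4630 and 2376 CPM, with a log2 difference of -3.78 ± 0.82 (adjusted p = 0.00934).

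Signalling and membrane genes made up most of the rest. Itm2c, a BRI-family membrane protein, fell by 2.97 (standard error 0.65, adjusted p = 0.00934). The G protein alpha subunits Gnai2 and Gna12 fell by 2.84 (standard error 0.65, adjusted p = 0.0123) and by 2.23 (standard error 0.58, adjusted p = 0.0264). Both were even among injury-only libraries: Gna12 measured 1641, 1337, 1588 and 1600 CPM there, and 226, 509, 379, 212 and 273 CPM with growth factors. Pcsk1n, the proSAAS precursor of neuroendocrine cells, fell by 2.68 (standard error 0.70, adjusted p = 0.0274). Bst2, the interferon-induced protein tetherin, fell by 3.35 (standard error 0.84, adjusted p = 0.0233). It was 1 of 3 tested members of the antigen presentation and interferon list, whose others did not pass, with H2-D1, a class I antigen-presenting molecule, at -2.57 ± 0.92 (adjusted p = 0.0985). Gpx1, Sepw1 and Pcsk1n lie outside the rule for named genes and were named after their values were seen.

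Rplp1, a stalk protein of the large ribosomal subunit, fell among ribosomal protein genes that otherwise did not pass. It measured 4059, 1018, 1262, 743 and 748 CPM with growth factors and 9061, 12900, 10358 and 11105 CPM with injury only, with a log2 difference of -2.87 ± 0.65 (adjusted p = 0.0122). Of 13 ribosomal protein genes tested, 3 had a positive difference and 10 a negative one, with a median of -0.38. Rpsa, the laminin-binding protein of the small subunit, stood at -1.98 ± 0.66 (adjusted p = 0.0829). Of 7 translation factors tested none passed, with a median of 0.63, and the elongation factor Eef1a1 stood at -1.74 ± 0.77 (adjusted p = 0.171). Near-identical pseudogenes of ribosomal proteins could take reads from these genes, so their levels are uncertain.

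No astrocyte marker passed the test, and library 1729 stood high for Aqp4 and Slc1a2. Of 18 markers 11 were tested, 7 with a positive and 4 with a negative difference, and their median was 1.01. The astrocyte sum was 12629, 17627, 20321, 97598 and 5465 CPM in the growth-factor libraries and 20161 to 26415 CPM with injury only. Library 1729 alone stood above the injury-only range and the other 4 lay near or below it. Aqp4, the water channel of astrocyte endfeet, measured 226, 1782, 1388, 13381 and 606 CPM against 2872, 1805, 2342 and 1508 CPM (log2 difference 0.70 ± 0.80, adjusted p = 0.628). Without library 1729 it stood at -0.97. Slc1a2, the main glutamate transporter, measured 1804, 3055, 5175, 34940 and 891 CPM against 3264, 2384, 1654 and 3016 CPM (log2 difference 1.83 ± 0.92, adjusted p = 0.230), and without library 1729 it stood at 0.18. Gfap, the intermediate filament of reactive astrocytes, measured 3608, 2036, 3913, 1699 and 190 CPM against 3127, 3501, 3109 and 4342 CPM (log2 difference -0.66 ± 0.68, adjusted p = 0.575). Library 1732 was the lowest for Gfap, and without it the difference was 0.13.

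Library 1729 and the hydrogel CT library 1683 both held astrocyte transcripts above the level of any precipitated astrocyte library. On a CPM scale without TMM, 15 astrocyte markers summed to 92735 in 1729 and 115603 in 1683, and to between 46918 and 88166 in the 10 precipitated libraries. Neuronal markers also lay above the precipitated libraries, with 18668 in 1729 and 5201 in 1683 against 721 to 3147. Over 546 genes the highest rho with a precipitated library was 0.66 for 1729 and 0.60 for 1683, and up to 0.57 for injury-only libraries. Library 1729 correlated with library 1683 at a rho of 0.60 across the 548 genes, and with its own group at 0.0030 to 0.27. Neither has a precipitated library under its title number. Growth-factor library 1645 has none either, and its highest rho with a precipitated library was 0.25. Without libraries 1729 and 1683, an alternative added after their likeness to precipitated libraries was seen, 14 genes rose and 45 fell. All 23 genes called with every library were among them. Whether these libraries carry the RNA that their labels name was not tested.

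**Figure D5:**
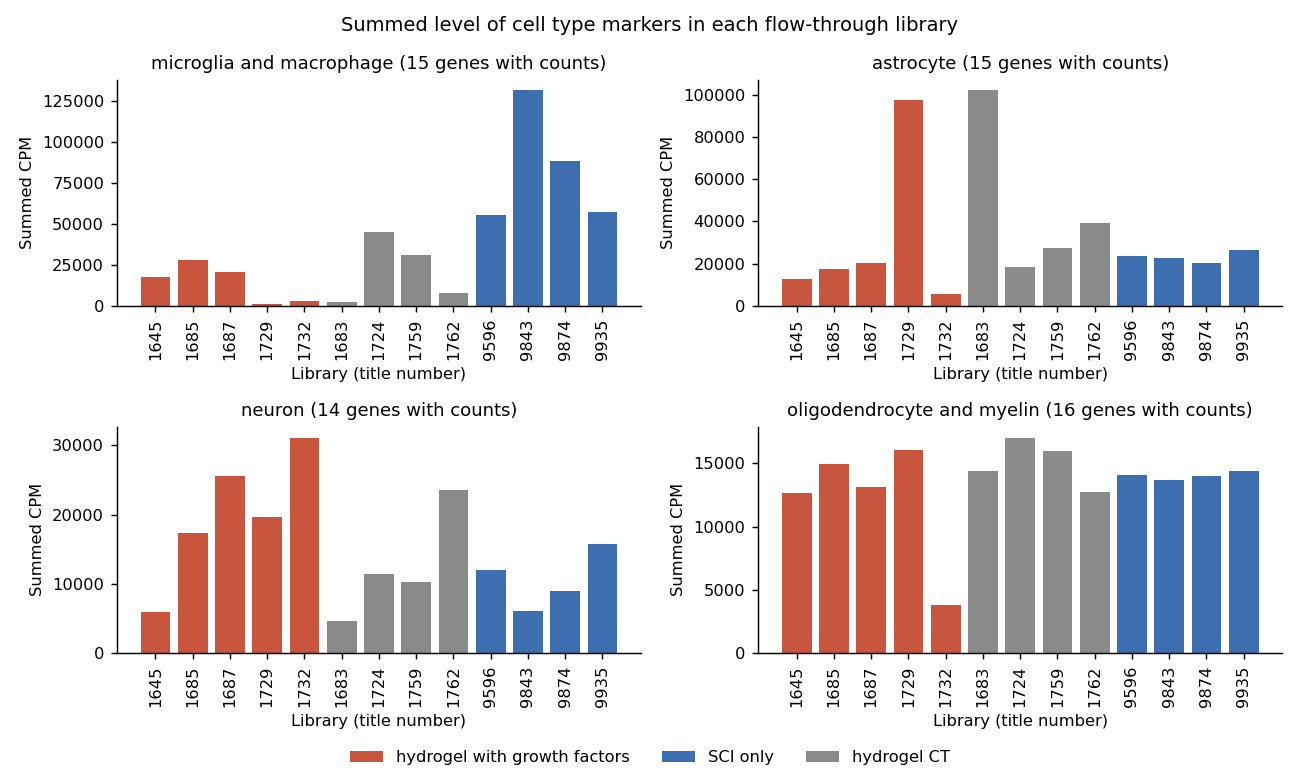
Summed CPM of the marker genes with counts for 4 cell types in each of the 13 flow-through libraries, bars coloured by group. Growth-factor library 1729 and hydrogel CT library 1683 stand highest for astrocyte markers (97598 CPM in 1729), and library 1732 stands lowest for oligodendrocyte markers, at 3814 CPM.

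Mt1 was the only tested gene of the reactive astrocyte list to fall. Mt1, a zinc-binding metallothionein that many injured cells induce, measured 902, 2800, 2019, 1912 and 677 CPM against 6470, 5747, 8400 and 7175 CPM, with a log2 difference of -2.06 ± 0.60 (adjusted p = 0.0470). With the GC offset Mt1 stood at 0.13, and it kept its call in 1 of 9 fits that left out 1 library. All 4 tested members had a negative difference, with a median of -1.98 that moved to -0.15 with the GC offset. Serpina3n, a secreted serine protease inhibitor, stood at -1.89 ± 0.76 (adjusted p = 0.132), and its groups did not overlap. The list's sum was 1711 to 7955 CPM with growth factors and 13920 to 18733 CPM with injury only. The 2 scar proteoglycan genes tested, Ncan and Ptprz1, stood at 1.81 ± 0.87 (adjusted p = 0.212) and 2.01 ± 0.82 (adjusted p = 0.138).

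No tested member of the neuronal or oligodendrocyte lists passed, and Myrf, which fell, is in neither list. Snap25, a protein of synaptic vesicle release, measured 226, 2036, 6563, 5629 and 7924 CPM with growth factors and 1610, 799, 1032 and 1188 CPM with injury only (log2 difference 1.97 ± 0.75, adjusted p = 0.120). Nefl, the light neurofilament, measured 2481, 2927, 4039, 10620 and 7283 CPM against 2472, 1309, 1363 and 3245 CPM (log2 difference 1.40 ± 0.66, adjusted p = 0.212). All but library 1645 exceeded the injury-only range for Snap25. The 6 tested neuronal markers had a median of 0.68, and the neuronal sum was 5863 to 31115 CPM against 6036 to 15721 CPM. Mobp, a protein of compact myelin, stood at 2971 ± 1768 CPM against 5437 ± 538 CPM (adjusted p = 0.389). The 7 tested oligodendrocyte markers had a median of 0.33, and of 2 tested markers of their progenitors neither passed. Library 1732 had the highest neuronal sum of the 9 libraries, 31115 CPM, and the lowest oligodendrocyte sum, 3814 CPM. Mbp, with 0 to 6 reads per growth-factor library and 3 to 35 with injury only, and Col1a1, a fibrillar collagen, with 1 to 10 and 8 to 66, were too sparse to test. All 9 untested oligodendrocyte markers had fewer reads with growth factors than would stand at the injury-only level. So had all 7 untested fibroblast and meningeal genes, but only 1 of 11 untested proteasome and ubiquitin genes. Library 1732, with most of the group's counts and the lowest oligodendrocyte sum, weighs most in this count. The share of all untested genes with fewer reads was not counted. Without a filter the median log2 difference over 4763 protein-coding genes was -0.60, so most of them had a negative difference. These counts by list therefore cannot be read as results about their members. By mean CPM, Mbp (156 against 153) and the myelin gene Mal (552 against 467) were not lower with growth factors. The adhesion protein Mag of the inner myelin surface had 4 reads where 88.7 would stand, and the outer myelin protein Mog had 1 where 51.9 would. Opalin, an oligodendrocyte membrane protein, had 1 read against 23.7. Mag, Mog, Opalin and Mal were named after their values were seen.

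The listed receptors and feedback genes of the FGF and EGF pathways were too sparse to test. Of 21 genes in their list, 5 had counts and only Ntrk2 was tested. Ntrk2 is the receptor of BDNF, a factor that the deposited column names give, and not a receptor of FGF or EGF. Its log2 difference was 0.93 ± 0.88 (adjusted p = 0.546), turning to -0.70 without library 1729. Spry2, an FGF feedback inhibitor, had 0, 0, 2, 2 and 16 reads with growth factors and 4, 0, 0 and 0 with injury only, without a test, and was named after its values were seen. Mcl1, an antiapoptotic member of the BCL2 family, measured 451, 7191, 3408, 637 and 689 CPM against 537, 841, 423 and 320 CPM (log2 difference 2.22 ± 0.84, adjusted p = 0.120). Library 1685 and library 1687 were high and the others lay in or near the injury-only range. Both tested proliferation genes missed the threshold, with Stmn1, a microtubule-destabilising protein, at 1.88 ± 0.82 (adjusted p = 0.167). No gene passed among the 1 to 13 tested members of the lists for cytokines and chemokines, matrix and proteases, axon growth support, heat shock, cholesterol, glycolysis, oxidative phosphorylation, splicing, proteasome, cytoskeleton and synapse. Markers of neutrophils and lymphocytes, erythrocytes, Schwann cells, endothelium, fibroblasts and ependyma had no member tested.

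No gene passed between hydrogel with growth factors and hydrogel CT. In edgeR 0 of 548 were called (0%), with 22 at an unadjusted p under 0.05, and DESeq2 called none, with 29 at an unadjusted p under 0.05. C1qa measured 626, 172, 92.0 and 0 CPM in hydrogel CT, and its difference between growth factors and CT was -0.56 ± 1.05 (adjusted p = 0.975). Cx3cr1 measured 0, 1721, 1748 and 309 CPM in CT, with a difference of 0.48 ± 0.85 (adjusted p = 0.975). Tyrobp, with the largest gap of these 3, measured 0, 947, 414 and 681 CPM in CT and differed by -3.06 ± 0.88 (unadjusted p = 0.00180, adjusted 0.975). Against the same injury-only libraries, CT gave log2 differences of -5.50 ± 0.96 for C1qa, 3.30 ± 0.96 for Cx3cr1, -1.36 ± 0.69 for Tyrobp, -3.74 ± 0.74 for Gpx3 and 2.33 ± 0.89 for Slc25a4. Both comparisons share those control libraries, so these values are not independent of the ones above. Differences with a standard error near 1 leave room for several-fold changes in either direction, and missing the threshold does not show that the 2 hydrogels act alike. The trend with GC content was present in CT as well, with a rho of -0.62.

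The authors' deposited table listed more genes for this comparison. Over 5001 rows, which hold the ribosomal ones too, it gave 17 protein-coding rows higher and 407 lower of 4825 at a false discovery rate under 0.05. All 20 genes that fell here, and 2 of the 3 that rose, were called in the same direction in the authors' deposited table. That table rests on the same libraries, so the overlap is not independent. Its log2 fold change was -6.63 for C1qa, -4.87 for Tyrobp, -5.08 for Myrf, 3.24 for Cx3cr1 and 3.03 for Slc25a4. Basp1, at 2.49, had a false discovery rate of 0.0849 in the authors' deposited table. The median over its protein-coding rows was -0.62.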

How the data were processed

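Count tables of flow-through and precipitated RNA were analysed from 23 samples. Per the labels' protocols, cDNA was amplified from 5 ng of RNA with the NuGEN Ovation kit and sequenced as paired ends, and per the submitters' processing notes the authors used CASAVA 1.8.2, edgeR and the mm10 build. Not given in the sources used here are the aligner, counter, strand setting and annotation, so overlapping and antisense genes cannot be separated. The deposited flow-through table gives raw counts per transcript row for each library, and per the file headers also the authors' log2 fold changes, p-values and false discovery rates. The smallest row total was 11. A further 26 deposited columns of normalised values and comparisons were not used.

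Of 5001 rows, 99.1% matched the GENCODE M21 annotation by transcript. Counts were summed per gene symbol. Rows without a symbol (35, from 0.00424% to 0.319% of counts), Yam1, Lars2 and symbols beginning with Gm and a digit or with Mir were left out of the library size, and 4763 protein-coding genes were kept. The rule also removes Gm2a, a lysosomal gene. Genes were filtered with filterByExpr (minimum count 10), scaled by TMM and tested with edgeR 4.0.16 (quasi-likelihood, robust, R 4.3.3), the 3 flow-through groups sharing 1 fit without covariates. The threshold was an adjusted p of 0.05 (Benjamini-Hochberg over all genes tested). A log2 difference is growth factors minus injury only. Expected reads are the injury-only mean CPM applied to each growth-factor library. Single library values were compared by an exact permutation test. DESeq2 1.42.0 was an alternative. GC content is the mean over a gene's matched transcripts, and each library's GC curve was a lowess fit (span 0.5), and correlations between libraries used log2(CPM + 50). PCR reads without molecular identifiers are not independent molecules, so counting intervals cover counting error only.

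Genes were named by rule: the 12 with the smallest p in each direction among those past the threshold, up to 4 called and the 2 most abundant tested members of each list, the 5 most abundant called genes with separate groups, and a fixed set of 12. Of 65 genes so named and tested, 13 with a difference smaller than its standard error are only counted in their lists, and a few others are not reported here. The comparison, the lists and the named genes were chosen with earlier results of these data known.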

Additional observations from a re-analysis of the deposited data

Results flagged for a closer look

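Of 62 sets of values examined, each a measure in 1 group of 4 or 5 libraries, 8 had a library far from the others by Dixon's criterion. Chance alone flags about 1 set in 20.

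Library 1729 of the growth-factor group stood apart in Aqp4, at 13381 CPM against 226 to 1782 CPM in the other 4, and in the summed astrocyte markers, at 97598 CPM against 5465 to 20321 CPM. Library 1732 stood apart in Basp1, at 5501 CPM against 226 to 573 CPM, and in the summed oligodendrocyte and myelin markers, at 3814 CPM against 12629 to 16036 CPM.

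Library 1645, with the fewest protein-coding counts, stood apart in Rplp1, at 4059 CPM against 743 to 1262 CPM, which rests on 18 reads, and in Hexa, at 902 CPM against 0 to 252 CPM, which rests on 4 reads. Library 1687 stood apart in Tyrobp, at 252 CPM against 0 to 63.6 CPM, which rests on 2 reads. In the injury-only group library 9935 had 3419 protein-coding genes with a count against 4501 to 4686 in the others, and it had the fewest protein-coding counts of that group.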

How the results depend on the processing

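The count of genes that rose with growth factors (3) was 5 without scaling, 29 with DESeq2, 17 without a filter, 12 with libraries of at least 10000 counts, 12 with only the 2 groups in the fit and 14 without libraries 1729 and 1683. The count that fell (20) was 8, 40, 143, 33, 22 and 45 in the same order, and 0 with the GC offset. Leaving out each library in turn gave 0 to 31 genes that rose, with 31 without library 1685 and 0 without 9596, 9843 or 9935, and 8 to 23 that fell, with the fewest without 9843. DESeq2 called all 23 genes of the edgeR fit. No gene passed between growth factors and CT in any fit that held CT. The GC offset and the fit without 1729 and 1683 were chosen after seeing the data. With libraries of at least 10000 counts the growth-factor group kept only 1685 and 1732. The median of all genes, -0.02, moved to 0.30 without scaling and with the GC offset, 0.28 without library 1685 and -0.60 without a filter. The protein-coding share differed by 15.1 to 34.5 percentage points when libraries were left out in turn, and passed the threshold without library 1645 (exact permutation p = 0.0286).

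Of 1120 alternative values for 57 named genes, 935 kept direction and side of the threshold, 137 lost a call, 32 gained one and 16 changed sign. With the GC offset the sign changed to 0.54 for Apoe, 1.60 for Ckb, 0.11 for Cplx1, 0.013 for Eef2, 0.59 for Fth1, 0.89 for Gfap and 0.13 for Mt1. With libraries of at least 10000 counts, Aqp4 stood at -1.02, Ntrk2 at -1.74 and Slc1a2 at -0.51. Without libraries 1729 and 1683, Aqp4 stood at -1.01 and Ntrk2 at -0.78. Without scaling, Gfap stood at 0.051. Leaving out each library gave -0.97 to 1.32 for Aqp4, -0.83 to 0.13 for Gfap and -0.70 to 1.62 for Ntrk2. Among these genes only Mt1 had been called, and the causes of these changes were not tested.

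No paired analysis was possible because the growth-factor and injury-only groups share no title number. Depth limits sizes of change: 4 of 5 growth-factor libraries held 2244 to 14638 protein-coding counts, so genes at 0 to 2 reads per library there have no firm size of change.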
